A study of Mus musculus with 12 samples.

Results

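ATP-binding cassette (ABC) transporters are taken here as the genes whose symbols run from Abca to Abcg followed by a number. All probe sets with a single gene symbol of that form were taken, which gave 92 of the 45037 probe sets analysed and 45 of the 18193 genes. Of the 50 members that had been listed beforehand, 5 had no such probe set and were not analysed here. RNA abundance was measured on Affymetrix Murine 430 2.0 arrays in liver and in quadriceps muscle. Controls were C57BL/6 mice, and mutants carried a hypomorphic mutation of PGC-1beta (PGC1beta mutant in the labels), that is, one that lowers the function of the gene, on C57BL/6. PGC-1beta is a coactivator that works with nuclear receptors and other factors on genes of mitochondria and lipid metabolism. There were 3 arrays for each tissue of each genotype, 4 groups in all. The labels give neither age nor sex, nor the allele's name, nor whether the 3 samples of a group came from separate mice, so the p-values rest on how far these samples vary, and that variation may be technical only.

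ABC proteins use the energy of ATP to move lipids, bile constituents, drugs, peptides and metals across membranes. In hepatocytes a small set sits in the canalicular membrane and makes bile. Abcb11 exports bile salts, Abcb4 moves phosphatidylcholine to the outer leaflet, Abcg5 and Abcg8 form a joint pump for cholesterol and plant sterols, and Abcc2 exports glucuronides and other conjugates such as those of bilirubin. Other members serve organelles. Abcd2 and Abcd3 bring long-chain acyl-CoA into peroxisomes for oxidation and, for Abcd3, bile acid intermediates too. Abcb6, Abcb8 and Abcb10 are linked with mitochondria, where Abcb6 and Abcb10 have been tied to haem synthesis and Abcb8 to iron handling. The members fell into 10 roles, of which the canalicular (5 genes), peroxisomal (2 genes) and mitochondrial (3 genes) ones are described first. The others were 7 further transporters of the multidrug resistance protein (MRP) type, 3 drug efflux pumps, 2 regulators of potassium channels, 16 sterol and phospholipid transporters, 2 lysosomal transporters, 4 soluble proteins and Abcg3. A single probe set represented 19 genes and several represented 26, with at most 10, for Abcc5.

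The stretches just before the annotated transcript starts of the canalicular genes are shown because these genes lay low together in mutant liver. Those of Abcd3 and Abcb10 are shown because they held 1 of the motifs described below, that of NRF1. Abcd3 too was lower in mutant liver without overlap, so the genes shown are not a low set and an unchanged set. The stretch of Abcb6, which had a window as well, is not shown. They were copied from RefSeq promoter windows of GRCm38.p6, which were held for 35 of the 45 genes (42 windows). Each shows the 250 bases before the start, 5′ to 3′ on the gene's strand. For Abcg5 and Abcg8 the 109 bases between their divergent starts are shown instead, on the Abcg8 strand. The annotated span of Abcg8 begins farther upstream, at chr17:84676302 within Abcg5, so a downstream start was used for it. That of Abcb4 begins at chr5:8893614, within the stretch shown. The positions are chr19:43782058-43782307 (Abcc2, plus strand), chr2:69342617-69342866 (Abcb11, minus), chr5:8893471-8893720 (Abcb4, plus), chr17:84683012-84683120 (between Abcg5 and Abcg8, plus), chr3:121815303-121815552 (Abcd3, minus, the farther upstream of its 2 annotated starts) and chr8:123983123-123983372 (Abcb10, minus). Capitals mark matches to the motifs searched.
Abcc2: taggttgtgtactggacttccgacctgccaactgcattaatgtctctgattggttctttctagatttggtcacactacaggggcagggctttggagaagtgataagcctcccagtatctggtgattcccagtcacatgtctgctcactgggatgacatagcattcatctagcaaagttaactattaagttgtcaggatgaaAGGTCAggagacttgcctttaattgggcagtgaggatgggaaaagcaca
Abcb11: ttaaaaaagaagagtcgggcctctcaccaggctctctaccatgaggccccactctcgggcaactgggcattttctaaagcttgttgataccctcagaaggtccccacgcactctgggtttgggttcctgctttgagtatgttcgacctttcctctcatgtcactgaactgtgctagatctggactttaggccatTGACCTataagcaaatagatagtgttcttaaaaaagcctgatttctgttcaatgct
Abcb4: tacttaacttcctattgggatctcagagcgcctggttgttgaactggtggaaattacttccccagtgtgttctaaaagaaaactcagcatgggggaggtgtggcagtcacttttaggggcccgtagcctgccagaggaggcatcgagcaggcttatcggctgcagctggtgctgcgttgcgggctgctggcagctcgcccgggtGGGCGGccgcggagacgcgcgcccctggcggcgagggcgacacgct
Abcg5 and Abcg8: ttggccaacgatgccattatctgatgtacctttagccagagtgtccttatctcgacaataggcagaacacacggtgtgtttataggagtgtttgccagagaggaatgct
Abcd3: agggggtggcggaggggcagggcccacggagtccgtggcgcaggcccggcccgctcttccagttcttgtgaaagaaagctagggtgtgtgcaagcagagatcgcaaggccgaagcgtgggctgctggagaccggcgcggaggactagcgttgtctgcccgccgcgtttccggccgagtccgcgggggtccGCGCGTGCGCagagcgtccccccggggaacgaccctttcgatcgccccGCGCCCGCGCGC
Abcb10: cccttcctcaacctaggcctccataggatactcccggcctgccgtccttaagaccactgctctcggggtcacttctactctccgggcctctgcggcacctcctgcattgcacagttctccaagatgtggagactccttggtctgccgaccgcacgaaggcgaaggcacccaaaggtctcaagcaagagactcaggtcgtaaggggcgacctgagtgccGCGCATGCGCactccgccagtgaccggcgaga

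The motifs were searched on both strands of the 300-base windows (250 bases before the start and 50 after): TNAAGGTCA for the estrogen-related receptors, AGGTCA for the hexamer that many nuclear receptors read, GCGC followed after any 2 bases by GCGC for NRF1, GGGCGG (GC box) and CACGTG (E box). Every match to the first also holds the hexamer. Of all 32851 windows in the table, 1.28% held the receptor motif, 16.3% the hexamer, 6.23% the NRF1 motif, 35.7% a GC box and 7.15% an E box. Of the 6 canalicular windows, 2 held the hexamer, those of Abcc2 (49 bases before the start) and Abcb11 (56 bases before it, on the opposite strand), and the window of Abcb4 held a GC box. Of the 4 peroxisomal and mitochondrial windows, 2 held NRF1 motifs, with 3 matches before or across an Abcd3 start and 1 before that of Abcb10, and 1, that of Abcb6, held the hexamer and a GC box. No canalicular window held the NRF1 motif. Base composition differed between the sets. The median GC content was 52.3% with 5.5 CG pairs in the canalicular windows, against 67.8% and 31.5 pairs in the organelle windows and 52.7% and 7 pairs over all windows. Of the organelle windows 2 were of Abcd3 and 1 each of Abcb6 and Abcb10, and Abcd2 and Abcb8 had none. The median was 75.0% with 43.5 pairs for the Abcd3 windows and 59.5% with 17 pairs for the mitochondrial ones. A match describes the letters only and says nothing of binding.

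The first question was how the ABC genes of the liver differed between PGC-1beta mutant and control. The 5 genes listed as canalicular lipid and bile transporters, called canalicular here, were all lower in mutant liver. Each had no overlap between the groups, but Abcc2 alone fell past the threshold. The drug efflux pumps were listed apart. Their groups overlapped, and Abcg2 had a higher mean in mutant liver. Intensities below were normalised by quantiles within a tissue. Differences are mutant minus control on the scale log2(intensity + 16), and SE is the standard error of a difference; adjusted p-values come from limma, by the method of Benjamini and Hochberg over every gene tested in that comparison. A gene was called at an adjusted p under 0.05.

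Abcc2, the exporter of conjugates, read 848, 825 and 924 in the control livers and 511, 479 and 399.5 in the mutants. All 3 mutants lay well below every control. The probe set behind it has the array maker's suffix for probes shared by several transcripts, which may be transcripts of one gene or of related ones. The means were 865 ± 51.9 and 463 ± 57.6 (SD, n = 3), and the difference of -0.88 (SE 0.14, adjusted p = 0.0181) is a 1.85-fold lower level on that scale. Over all genes tested in liver, 3.35% were called, 1.03% as lower in the mutant and 2.33% as higher. Leaving out mutant 2 kept the call (adjusted p = 0.0197), whereas without any other single array it was lost. The adjusted p was then 0.0621, 0.0566 and 0.0628 without control 1, 2 and 3, and 0.117 and 0.0579 without mutant 1 and 3, with differences from -0.94 to -0.78 over these fits.

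Abcb11, the bile salt export pump, read 2916, 2456 and 2531 in controls and 1769, 2170.5 and 1968 in mutants. The groups did not overlap, and the difference was -0.42 (SE 0.12, adjusted p = 0.0874). Abcb4, the phosphatidylcholine translocator, read 2702, 2769 and 1999 in controls against 1636, 1911 and 1624 in mutants. Control 3 lay close above the mutants here, and the difference was -0.52 (SE 0.15, adjusted p = 0.0812).

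Abcg5 and Abcg8, whose proteins work as a pair and whose genes lie head to head on chromosome 17, followed one order across the mutant arrays. Abcg5 read 1458, 1621 and 1660 in controls and 913, 1369.5 and 909 in mutants. Abcg8 read 796, 884 and 995 in controls and 544, 772 and 539 in mutants. In both genes mutants 1 and 3 lay low and near each other, and mutant 2 lay just under the lowest control. The differences were -0.59 (SE 0.17, adjusted p = 0.0835) for Abcg5 and -0.53 (SE 0.17, adjusted p = 0.118) for Abcg8.

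**Figure D1:**
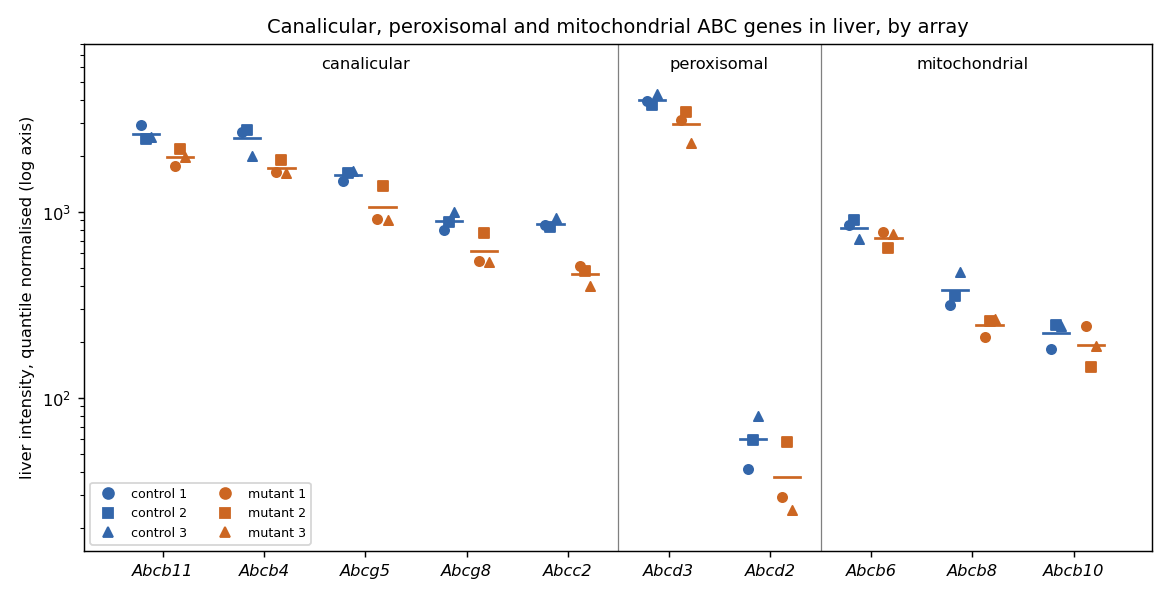
Intensity of the canalicular, peroxisomal and mitochondrial genes in each of the 6 liver arrays (log axis, quantile normalised), with symbols for the arrays and a line at each group mean. The 5 canalicular genes had every mutant array (orange) below every control array (blue), as did Abcd3 and Abcb8. The groups overlapped for Abcd2, Abcb6 and Abcb10. Each gene is shown by its brightest probe set, and a dimmer one of Abcb10, not shown, did not overlap.

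Among the peroxisomal genes, Abcd3 was abundant in liver and Abcd2 dim. Abcd3, the major ABC protein of the peroxisomal membrane, read 3968, 3755 and 4296 in controls and 3119, 3433 and 2348 in mutants. Its groups did not overlap, with mutant 3 the lowest, and the difference was -0.45 (SE 0.14, adjusted p = 0.111). With the mean of its probe sets, which takes in a dim one, it was 0.03. Abcd2, a carrier of very long-chain acyl-CoA, read 41.2, 59.3 and 79.3 in controls and 29.2, 58.0 and 25.0 in mutants. Mutant 2 lay within the controls, and the difference of -0.53 had a wide error (SE 0.29, adjusted p = 0.363).

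Of the mitochondrial genes, Abcb8 read 315, 354 and 477 in controls and 212, 259.7 and 265 in mutants. The groups did not overlap, and the difference was -0.59 (SE 0.19, adjusted p = 0.112). Abcb6 read 847, 901.5 and 714 in controls and 777, 640.3 and 757 in mutants. Abcb10, by its brighter probe set, read 183, 247 and 243 in controls and 244, 146 and 190.1 in mutants. Both overlapped, with differences of -0.17 (SE 0.15, adjusted p = 0.572) for Abcb6 and -0.22 (SE 0.21, adjusted p = 0.627) for Abcb10.

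Set side by side, the canalicular genes had a median difference of -0.53 and the 5 peroxisomal and mitochondrial genes one of -0.45, beside 0.01 over all genes tested. The groups did not overlap for 5 of 5 canalicular and 2 of 5 organelle genes. Over all genes tested 11.0% lay lower in the mutant without overlap. These counts take the brightest probe set of a gene, and each canalicular gene had only 1. A dimmer probe set of Abcb10, described below, also lay lower without overlap. No test of the difference between the lists was made. The median canalicular deviation from the control mean was -0.03, -0.01 and 0.07 in control arrays 1 to 3, and -0.69, -0.27 and -0.70 in mutant arrays 1 to 3. For the organelle genes it was -0.25, 0.02 and 0.12 in the controls and -0.36, -0.34 and -0.48 in the mutants. By this median mutant 2 stood apart from the other mutants for the canalicular genes. Abcc2 did not follow it, with -0.74, -0.83 and -1.08 in mutants 1 to 3. The other canalicular genes were each nearest the control mean in mutant 2. The organelle median also hid members that moved in different arrays. The peroxisomal pair had medians of -0.54, -0.11 and -0.81 in mutants 1 to 3, and the mitochondrial genes -0.07, -0.51 and -0.21.

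Those arrays also differed in a sign of RNA quality. The ratio of 3′ to 5′ signal over the array's control transcripts Actb, Gapdh and Pcx, as a mean log2 value, was 1.90 and 1.87 in liver mutants 1 and 3, 0.90 in mutant 2 and from 0.50 to 0.97 in the controls. With this ratio as a covariate, the Abcc2 difference was -0.79 (adjusted p = 0.404) and the canalicular median -0.25, with Abcg5 at -0.16 and Abcg8 at -0.13. The organelle median was -0.39 in that fit, from members that moved apart. Abcd2 then differed by 0.12 and Abcd3 by -0.16, whereas Abcb6 and Abcb10 differed by -0.44 and -0.60. Without mutants 1 and 3, so that mutant 2 alone faced the controls, Abcc2 differed by -0.81 (adjusted p = 0.347), the canalicular median was -0.27 and the organelle median -0.34. The Abcc2 difference was thus of similar size in mutant 2, whereas Abcg5 and Abcg8 differed there by -0.20 and -0.19. The lone array is assumed in that fit to vary like the controls.

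Markers of liver cells moved between the groups as well. The hepatocyte list (5 of 6 genes measured) summed to 58066 to 59165 in controls and 52275 to 55235 in mutants. Of its genes Tat fell (-0.75, adjusted p = 0.0430). Cps1 differed by -0.13, Alb by -0.11 and Ttr by -0.01, none of them called, and Apoa2 did not move. The list of Kupffer cells and macrophages (9 of 9 measured) summed to 2115 to 2934 in controls and 3376 to 4392 in mutants. Tyrobp, Lyz2 and Vsig4 were past the threshold as higher. Marco, Cd68, Cd5l, Adgre1 and Clec4f differed by 0.16 to 0.58 and Csf1r by -0.07, none of them called. The lymphocyte list (4 of 5 measured) summed to 127 to 148 in controls and 156 to 183 in mutants. Most of it came from Ptprc, at 70.0 to 88.9 in controls and 96.0 to 138 in mutants. Cd3e, Cd79a and Cd2 were at 32.4 or less in every liver array, with overlapping groups. The list of bile duct cells (4 of 5 measured) summed to 229 to 383 in controls and 196 to 351 in mutants, mostly from Epcam, at 144 to 355 in controls and 153.5 to 334 in mutants, while Krt19, Krt7 and Sox9 were at 32.1 or less in every liver array. The part of these shifts in the ABC differences was not tested. In such bulk RNA, fewer cells of a type and less RNA per cell cannot be told apart.

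Of all 45 ABC genes, 39 passed the filter on dim genes in liver, and 1 of them, Abcc2, was called. The 6 others (Abca4, Abca7, Abca13, Abca16, Abcc10 and Abcc12) were too dim to test. At an unadjusted p under 0.05 stood 12 of 39, where 19.6% of all genes did. The difference was below 0 for 33 of 39, with a median of -0.26. Over all genes tested in liver 48.8% were below 0, with a median of 0.01. The groups did not overlap for 12 as lower and for 1, Abcc8, as higher, for which the shares over all genes were 11.0% and 13.0%. Of the 12 lower genes, mutant 3 was the lowest array in 8, mutant 1 in 3 and mutant 2 in 1.

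**Figure D2:**
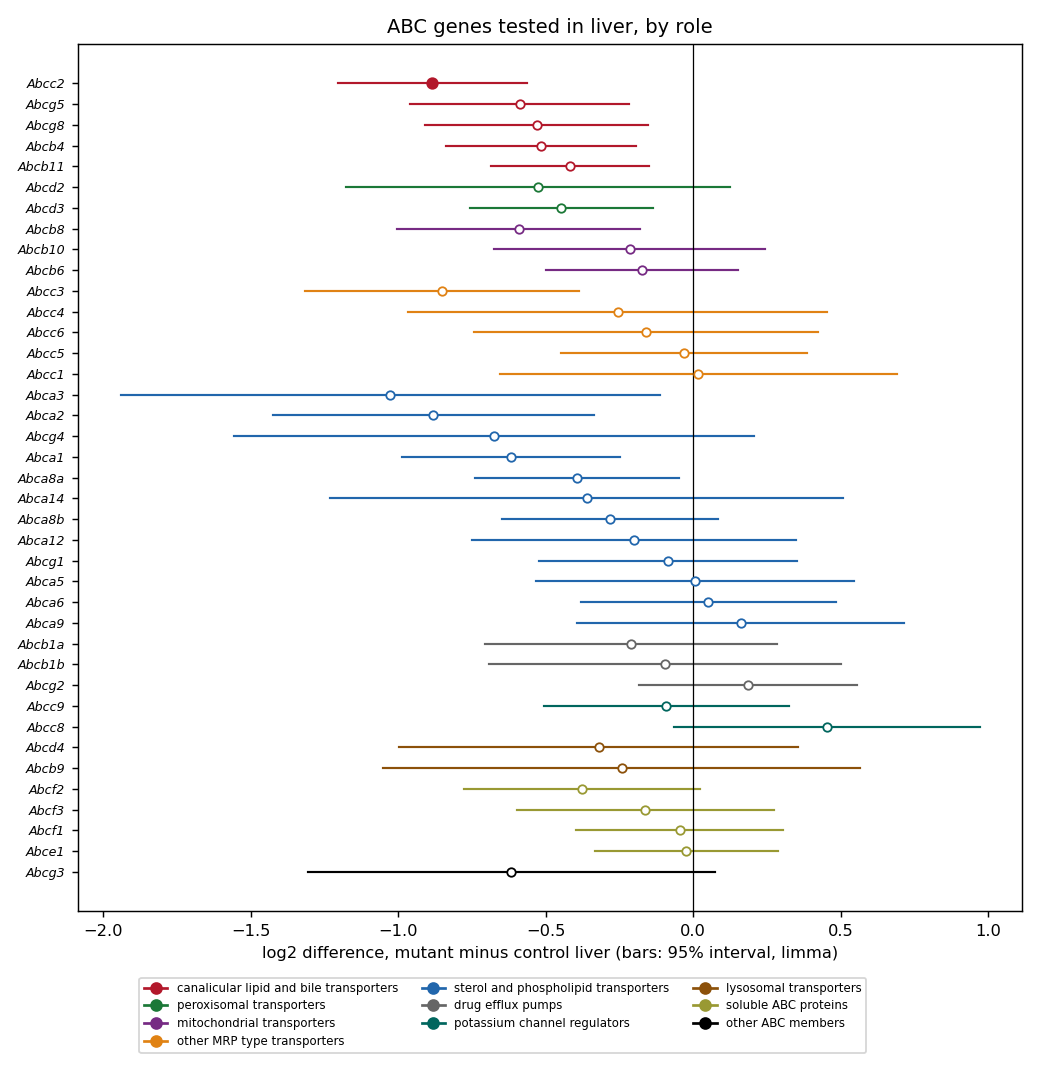
Log2 difference between mutant and control liver with its 95% interval (limma) for the 39 ABC genes tested, grouped by role. The filled point, Abcc2 at -0.88, is past an adjusted p of 0.05. Of the 39 points 33 lie below 0, beside 48.8% of all genes tested.

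Outside the canalicular and organelle roles, the largest differences without overlap were those of Abcc3, Abca2 and Abca1. Abcc3, which exports conjugates and bile salts across the basolateral membrane into blood, read 3272, 2374 and 2299 in controls and 1315, 2014.5 and 1131.5 in mutants. Mutant 2 again lay nearest the controls, and the difference was -0.85 (SE 0.21, adjusted p = 0.0555). It was -0.35 (adjusted p = 0.809) after adjusting for the signal ratio above and -0.37 without mutants 1 and 3. The other MRP-type genes tested, Abcc1, Abcc4, Abcc5 and Abcc6, differed by -0.26 to 0.02. In all, 0 of 5 of that role were called and 4 of 5 were below 0, beside 48.8% of all genes tested.

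In the sterol and phospholipid role, 0 of 12 genes tested were called and the median was -0.32. Of the 12, 9 were below 0, beside 48.8% of all genes tested. Abca1, which loads cholesterol and phospholipid onto apolipoprotein A-I, read 1484, 1212 and 1258 in controls and 732, 1080.2 and 776 in mutants. The groups did not overlap, and the difference was -0.62 (SE 0.17, adjusted p = 0.0716), or -0.24 after the same adjustment. Abca2, an endosomal and lysosomal lipid transporter, read 156, 193.5 and 127 in controls and 89.1, 49.9 and 103 in mutants. Here mutant 2 was the lowest array, and the difference was -0.88 (SE 0.25, adjusted p = 0.0799), or -1.57 after it. Abca3, which packs surfactant lipid in the lung, read 584, 261 and 568 in controls and 137, 439 and 149 in mutants. Mutant 2 lay among the controls, and the difference of -1.03 had a large error (SE 0.41, adjusted p = 0.202) and turned to 0.34 after that adjustment.

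In the remaining roles no gene was called. The drug efflux pumps Abcb1a, Abcb1b and Abcg2 differed by -0.21, -0.10 and 0.19. Abcc8, the sulphonylurea receptor of beta cells, was dim in liver, at 39.9, 59.0 and 61.5 in controls and 106, 62.9 and 70.5 in mutants. Its mutants lay above every control by a margin that was small for mutant 2, and the difference was 0.45 (SE 0.23, adjusted p = 0.324). The soluble proteins, which act on ribosomes and in translation instead of moving a substrate, ranged from -0.38 (Abcf2) to -0.02 (Abce1). The lysosomal genes Abcd4 and Abcb9 differed by -0.32 and -0.24, and Abcg3 by -0.62, all with overlapping groups. Besides the genes above, Abcf2 and Abca8b (-0.28) were the ones whose mutants lay below every control.

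Probe sets of a gene did not always give one value. In liver 58 member probe sets were tested on their own and 2 were called, where 2.05% of all probe sets were. One was that of Abcc2, and the other was a second probe set of Abcb10. That probe set read 129, 114 and 148 in controls and 33.5, 53.4 and 60.9 in mutants. Every mutant lay below the lowest control, and the difference was -1.18 (SE 0.22, adjusted p = 0.0329), against -0.22 for the brighter probe set of the same gene. The probe sets of Abca1 differed by -0.62, -1.30 and -1.44, and those of Abce1 by -0.02 and -0.72. Of 12 genes with several probe sets tested, 9 had one sign throughout and 3 (Abcc5, Abcf1 and Abcf3) had both. Which transcripts each probe set reads was not examined here.

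**Figure D3:**
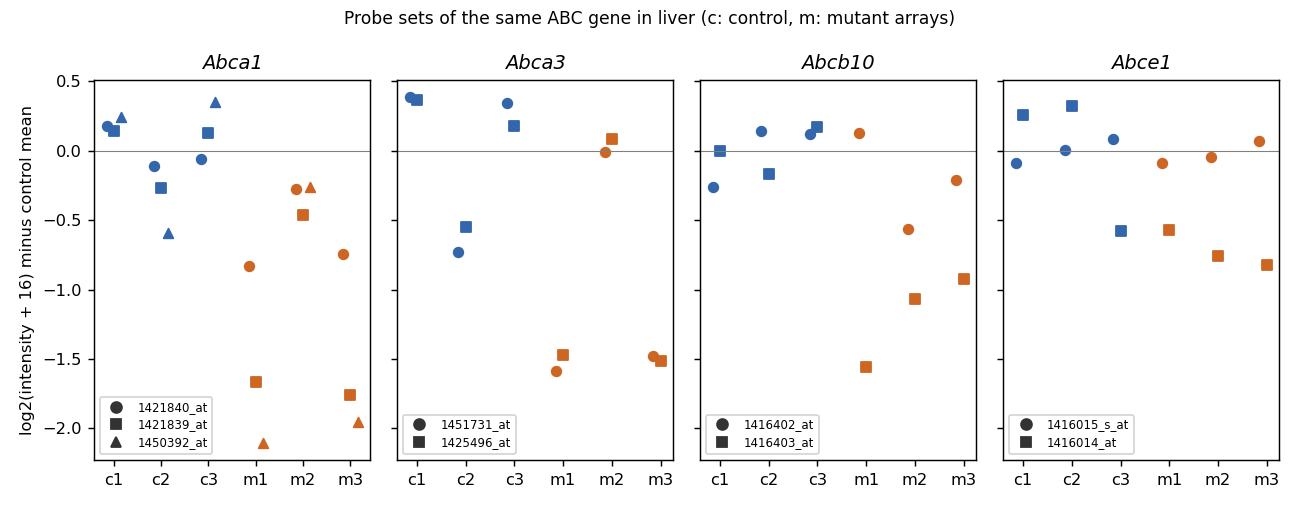
Log2(intensity + 16) of the tested probe sets of Abca1, Abca3, Abcb10 and Abce1 in the 6 liver arrays, as the difference from the mean of the 3 controls, with a symbol per probe set. For Abcb10 the dimmer probe set is lower in all 3 mutants while the brighter one is above 0 in mutant 1 and below it in the others, for Abce1 one probe set lies near 0 and the other is lower, and the Abca1 and Abca3 probe sets are lowest in mutants 1 and 3.

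The same comparison in quadriceps muscle gave no called ABC gene. With limma 0 of 32 tested were past an adjusted p of 0.05 and 2 were at an unadjusted p under 0.05, in a comparison where 0.0152% of all genes were called and 4.26% were under that unadjusted p. The differences were below 0 for 16 of 32, beside 50.1% of all genes, with a median of 0.01 beside 0.00 over all genes. Of the 13 not tested, Abcb11, Abcc2 and Abcg5 belong to the canalicular role and were near background in muscle, with 14.0 as their highest intensity in any array.

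The members nearest the threshold in muscle were higher in the mutant. Abcc9, the regulatory subunit (SUR2) of the ATP-sensitive potassium channel of muscle and vessels, read 1606.5, 1545.5 and 1648.5 in controls and 1904, 2015.5 and 1749 in mutants. Abca9, a little-studied lipid transporter, read 110.4, 116 and 169 in controls and 177, 171 and 187 in mutants. Neither gene's groups overlapped, where 4.33% of all genes lay higher in the mutant without overlap. The differences were 0.24 (SE 0.09) and 0.41 (SE 0.16), both with an adjusted p of 0.994.

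The peroxisomal and mitochondrial genes were below 0 in muscle in 5 of 5 cases, beside 50.1% of all genes tested. Their median was -0.23, with overlapping groups throughout. Abcb8 differed by -0.29 (SE 0.18), Abcb10 by -0.27 (SE 0.17), Abcb6 by -0.23 (SE 0.21), Abcd3 by -0.13 (SE 0.11) and Abcd2 by -0.02 (SE 0.18), each with an adjusted p of 0.994 or above. Abcd3 read 391, 338 and 373 in control muscle and 334, 325 and 342 in mutant muscle. Without muscle mutant 2 the median was -0.11. Of the canalicular genes, Abcb4 read 718, 727 and 644 in control muscle and 765, 710.4 and 591 in mutant muscle, a difference of -0.02 (SE 0.12). Abcg8, dim at 45.5 or less in every muscle array, differed by -0.39 (SE 0.21).

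Whether the mutant effect differed between the tissues was tested as an interaction. Of 31 ABC genes tested, 0 were past an adjusted p of 0.05 in limma and 4 were at an unadjusted p under 0.05, where 1.42% of all genes were called and 15.5% were under that unadjusted p. The members' share is thus no higher than that of all genes. Those 4 were Abca1, with a liver effect lower than the muscle effect by 0.88 in log2 units (adjusted p = 0.0618, SE 0.22), Abca2 (-1.59, SE 0.48, adjusted p = 0.123), Abca8a (-0.65, SE 0.21, adjusted p = 0.146) and Abcb4 (-0.49, SE 0.19, adjusted p = 0.227). Abca1 read 184, 209 and 182 in control muscle and 201, 254 and 244.5 in mutant muscle, with overlap. Abca1, Abca2 and Abca8a were lower in mutant liver and higher in mutant muscle, by 0.26, 0.71 and 0.25 in muscle, none of them called there. Abca2 read 10.6, 9.8 and 52.4 in control muscle and 47.1, 28.1 and 57.3 in mutant muscle. Its muscle controls 1 and 2 were thus near background and control 3 lay among the mutants. Without liver mutant 2 or without muscle control 3, 1 ABC gene was called, Abca1 in the former fit and Abca2 in the latter. Of all genes 391 and 58 were called in these fits. For Abcd3 the interaction was -0.32 (SE 0.18) and for Abcb8 -0.30 (SE 0.27), and for Abcb6 and Abcb10 it was 0.05 in each (SE 0.27 and 0.28).

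**Figure D4:**
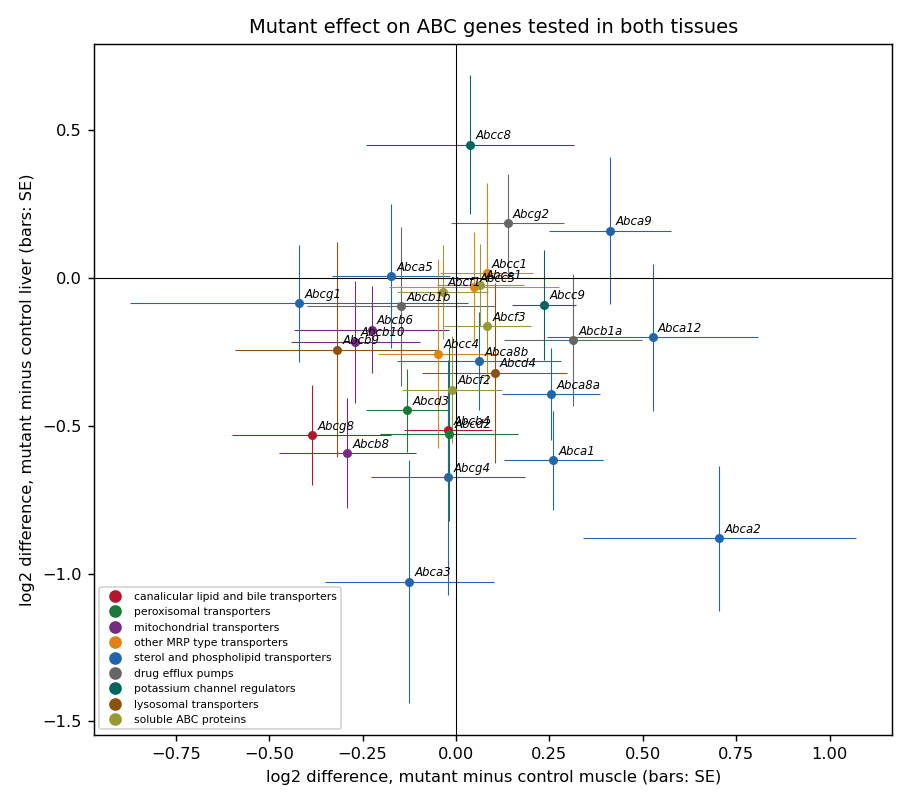
Log2 difference between mutant and control in liver (vertical axis) against that in muscle (horizontal axis) for the 31 ABC genes tested in both tissues, with SE bars and colours for roles. In 15 genes the difference is below 0 in both tissues, and in 11, among them Abca1, Abca2 and Abca8a, it is below 0 in liver and above 0 in muscle.

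Control liver and control muscle were set against each other to place each gene without the mutation. Here the 6 control arrays were normalised together, and the intensities are on that scale. Of 40 ABC genes tested 30 were called, 18 as higher in liver and 12 as lower, where 54.7% of all genes were called, 26.3% as higher and 28.4% as lower. With values normalised within tissue, the hepatocyte list summed to at most 138 in muscle and the muscle fibre list to at most 152 in liver, each against at least 52275 (liver) or 69262 (muscle) in its own tissue. Without normalisation between the tissues 28 ABC genes were called and the split was 22 higher to 6 lower. Over all genes the split was then 6323 to 2157, with the median at 0.49 in place of -0.01. Probe set by probe set, 48 of 73 were called, where 47.8% of all were.

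All 5 canalicular genes were higher in liver. Abcb11 read 1842 ± 161 in liver and 4.33 ± 1.70 in muscle (SD, n = 3), Abcg5 1139 ± 73.5 and 11.1 ± 7.50, Abcc2 649.9 ± 35.1 and 3.94 ± 3.60, and Abcg8 668 ± 69.5 and 45.5 ± 11.7. The groups were far apart in each. As the muscle signal of the first 3 was near background, their log2 differences of 6.51, 5.45 and 5.08 depend on the offset added and have no fixed size, with ranges over the alternatives of 4.80 to 8.50 for Abcb11, 4.004 to 6.82 for Abcg5 and 3.40 to 7.30 for Abcc2. That of Abcg8 was 3.49 (2.74 to 4.08). Abcb4 stood apart from them, at 1746 ± 289 in liver and 889.6 ± 60.2 in muscle, a difference of 0.95 (SE 0.13, adjusted p = 0.000102). It was the canalicular gene with a high signal in muscle.

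The peroxisomal pair took opposite sides. Abcd3 read 2763 ± 179.8 in liver and 465 ± 36.1 in muscle, a difference of 2.53 (SE 0.11, adjusted p = 4.05e-09). Abcd2 read 48.5 ± 16.1 in liver and 252 ± 50.8 in muscle, a difference of -2.07 (SE 0.22, adjusted p = 9.55e-06). Of the mitochondrial genes Abcb6 was higher in liver (618 ± 69.0 and 219.6 ± 45.7, difference 1.44, SE 0.16, adjusted p = 1.63e-05). Abcb8 and Abcb10 did not pass, with differences of 0.15 (95% interval -0.24 to 0.54) and 0.13 (-0.22 to 0.48). Both were past the threshold as higher in liver with values as deposited (0.77 and 0.70) and with normalisation within each tissue (0.76 and 0.69).

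**Figure D5:**
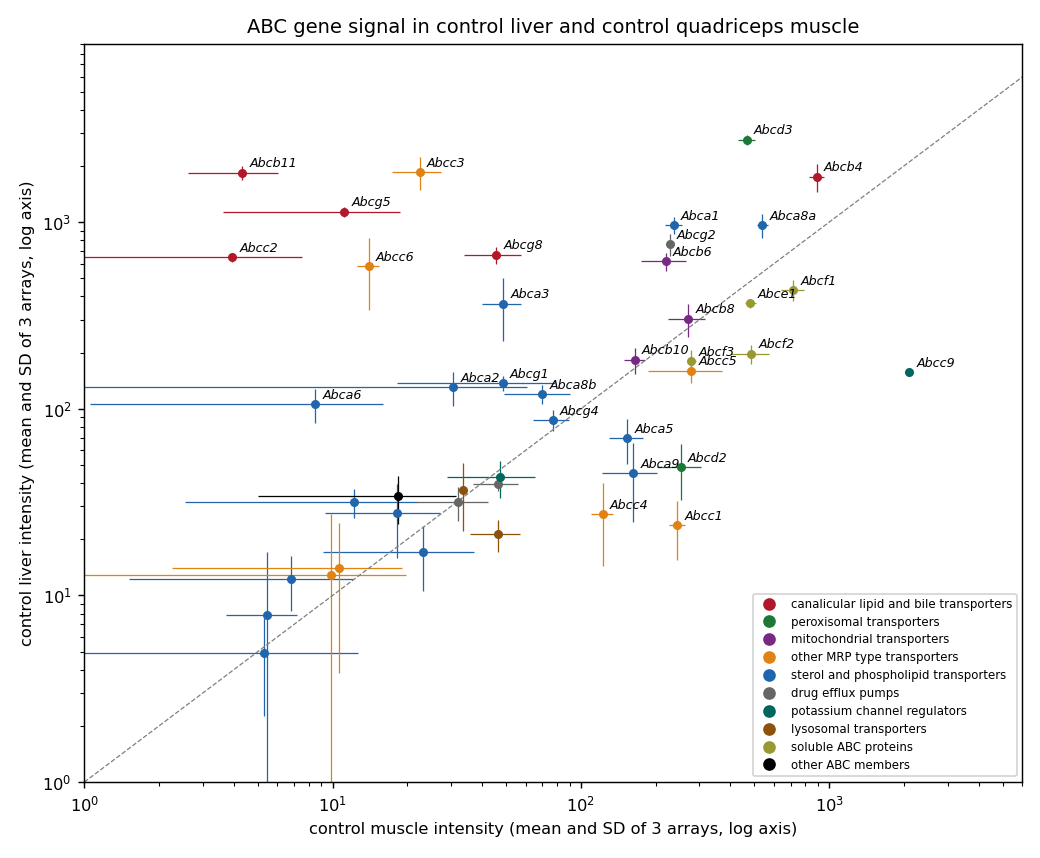
Mean intensity of the 45 ABC genes in control liver (vertical) against control muscle (horizontal), with SD bars over 3 arrays each, on log axes after joint quantile normalisation. The dashed line marks equal signal, and bars that would reach 0 or less end at the axis. Abcb11, Abcc2, Abcg5, Abcc3 and Abcc6 lie far above the line, and Abcc9, Abcc1, Abcc4 and Abcd2 below it.

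The MRP-type genes divided by tissue as well. Abcc3 (difference 5.60) and Abcc6 (4.24), an ATP-releasing protein whose loss leads to soft-tissue calcification, were higher in liver, with muscle means of 22.4 and 14.0, so that their sizes too depend on the offset (4.46 to 6.33 and 2.98 to 5.22 over the alternatives). Abcc1 (-2.73), which exports glutathione conjugates and leukotrienes, Abcc4 (-1.72), an exporter of cyclic nucleotides, and Abcc5 (-0.71) were lower there. Abcc9 had the largest difference toward muscle, with 157 ± 3.01 in liver and 2100 ± 66.9 in muscle (-3.61, SE 0.11, adjusted p = 1.75e-10), and Abcc8 did not pass. Of the sterol and phospholipid genes 8 were higher in liver, among them Abca3 (2.50), Abca6 (2.34) and Abca1 (1.95), and 2 were lower, Abca9 (-1.57) and Abca5 (about 2.00-fold). Abca8b, Abca8a, Abca9, Abca6 and Abca5 lie next to each other on chromosome 11 and still took both directions, with Abca8a at 0.81 and Abca8b at 0.68. Of the drug efflux pumps Abcg2 was higher in liver (1.67), and Abcb1a and Abcb1b did not pass.

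The 4 soluble proteins were all called as lower in liver, by 0.37 for Abce1 to 1.23 for Abcf2 on the log2 scale. For Abce1 the direction turned with the values as deposited, with normalisation within each tissue and with the mean of its probe sets, and for Abcf3 with the mean of its probe sets. The calls of Abcf1 and Abcf3 were lost with values as deposited (-0.011 and -0.0031) and with normalisation within tissue, and those of Abcf1 (-0.12) and Abcf2 (-0.34) with the mean of probe sets. Of the lysosomal genes Abcb9 was lower in liver (-0.73) and Abcd4 did not pass. Abcb9 was dim, at 21.2 ± 4.08 in liver and 46.3 ± 10.5 in muscle (SD, n = 3), and its call was lost in 5 of 18 alternatives. Among the genes above, the calls of Abcc5, Abca5 and Abca8b were lost in 4, 3 and 2 of 18.

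Genes that work with these transporters, none with a symbol of the form used here, were taken from a fixed list. The list had uptake carriers, nuclear receptors, flippases, lipoprotein and peroxisomal genes among others, and 43 were measured. Tap1, Tap2 and Cftr on it are ABC genes under other symbols, which the symbol rule left out of the members. In liver 2 of 42 tested were called, both as lower, beside the 3.35% of all genes called and 1.03% called as lower. Lcat, which esterifies cholesterol in plasma lipoproteins, read 4805, 5283.5 and 4375 in controls and 2965, 3704 and 2974 in mutants (-0.59, SE 0.12, adjusted p = 0.0306). Slc27a2, which activates very long-chain fatty acids and bile acids, read 8406.5, 9310.5 and 8543 in controls and 5366, 6950.4 and 6647.5 in mutants (-0.48, SE 0.11, adjusted p = 0.0408). Next by p came Slc10a1, the sodium-dependent bile salt uptake carrier (-0.57, SE 0.15, adjusted p = 0.0672), and Hnf4a, a nuclear receptor of hepatocytes (-0.41, SE 0.12, adjusted p = 0.0857). The median over the list was -0.13. In muscle 0 of 32 were called by limma and 2 were at an unadjusted p under 0.05, beside 4.26% of all genes. The smallest p-values there were those of Ezr (-0.62), Alas1 (-0.30), Slco2b1 (0.38) and Glrx5 (-0.19), each with an adjusted p of 0.994.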

How the data were processed

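The 12 arrays were deposited as linear probe set intensity, 1 column per array; the summary method and the scaling were not stated in the sources read here. Per the labels RNA was extracted with Qiagen kits. The median intensity of an array was 27.2 to 40.1 (liver) or 20.1 to 22.3 (muscle). Of 45101 probe sets, 64 controls were left out; 34945 had a single gene symbol, 932 several and 9160 none. Values were taken as log2(value + 16), normalised by quantiles within tissue (the control arrays together for the tissue comparison), and the probe set with the highest mean stood for a gene. Genes brighter in a tissue than 40 percent of the probe sets were tested with limma 3.58.1 (R 4.3.3; moderated variance with a trend, 4 residual degrees of freedom per tissue). The number of arrays limits the precision. No array was a duplicate of another (r of 0.943 to 0.960 among liver and 0.962 to 0.971 among muscle arrays). Scripts were tested on simulated data. Promoter letters and updated symbols came from RefSeq tables of GRCm38.p6. Figures used matplotlib 3.10.9 in Python 3.11.15.

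The members and lists were chosen with earlier results of these data known. All canalicular, peroxisomal and mitochondrial genes were named, and of the others those called, those without overlap and a genotype difference of at least 0.5, or up to 2 of a role by smallest p; of the partner genes, those called or the 4 smallest p in a tissue. A few more are given as values in a range or count. Alternatives were offsets of 1 and 64, other filters, normalisations and probe set rules, variance settings, a sample-number block, the 3′ to 5′ ratio and left-out arrays.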

Additional observations from a re-analysis of the deposited data

How the results depend on the processing

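The Abcc2 difference in liver stayed between -0.94 and -0.78 in all 21 alternatives and was past the threshold in 11. The count of ABC genes called in liver, 1 in the report, stood beside 447 of all 13326 genes. It was 2 with a filter at the 60th percentile and with array weights (each adding Abcc3), beside 587 of 9995 and 591 of 13326. It was also 2 with every probe set on its own (adding one of Abcb10). With all 12 arrays in one fit it was 5, beside 998 of all genes, and with a threshold of 0.1 it was 7, beside 1028. It was 0 with values as deposited, where 297 of all genes were called. It was 0 as well without a variance trend, where 0 of all genes were called, and with a covariate for the ratio of 3′ to 5′ signal, where 2 were. Leaving out 1 array gave 0 to 8, the 8 without mutant 2, where 742 of all genes were called. The other fits without 1 array called 0 to 43 of all genes. The canalicular liver median was -0.25 with the ratio as a covariate, -0.27 without mutants 1 and 3, and -0.70 to -0.47 with 1 array left out. The organelle liver median was -0.29 with an offset of 64, -0.25 with values as deposited, -0.25 with median centring, and -0.56 to -0.29 with 1 array left out. In muscle it was -0.081 with the mean of probe sets and -0.26 to -0.11 with 1 array left out, and no alternative called an ABC gene there. The interaction count was 1 in place of 0 (Abca1) with an offset of 64, a filter at the 60th percentile and a threshold of 0.1. In these fits 227, 213 and 351 of all genes were called. With 1 array left out the interaction count was 0 to 1. Between the tissues 48 of 73 probe sets were called on their own. With 1 array left out 27 to 30 ABC genes were called, beside 7317 to 7550 of all genes. Between the tissues, called values that reversed were those of Abce1, at 0.29 as deposited, 0.29 with normalisation within tissue and 0.41 with the mean of probe sets, and of Abcf3, at 0.079 with the mean of probe sets. Of 805 liver values of single genes over the alternatives, 47 had the other sign, none of them called, among them Abca3 and Abcd2 with the ratio as a covariate and Abcd3 with the mean of probe sets. The causes of these changes were not tested.

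With the replicate number as a block, the liver count was 0 (Abcc2 adjusted p = 0.0575), where 11 of all 13326 genes were called. The muscle and interaction counts were 0, the tissue count was 30, and the medians were the same. Deviations of same-numbered liver samples correlated at -0.059 to -0.007 and of muscle samples at 0.022 to 0.102. With so few arrays per group, such low correlations cannot decide whether same-numbered samples were paired. Intensities close to background limit what can be read of dim members such as Abcd2 and Abcg3 in liver.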
